A study of Mus musculus with 5 samples.

Results

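The complement and coagulation genes described here were 49 mouse genes of the complement cascade, the clotting cascade, their inhibitors and the plasminogen system. They were chosen by name, and their probes were found through the RefSeq accession that the array's design gives each probe. The 49 genes had 66 probes of the 41174 on the array, and they were 49 of the 18327 genes that could be named from 26888 probes. RNA was read on 5 Agilent arrays, 1 for each cell state, so no difference below has a replicate or a test. ES was the E14 mouse embryonic stem cell line, and Hepa1-6 was a mouse hepatoma line. EHe was a hybrid line made by fusing E14 with Hepa1-6, and EHeD7 and EHeD14 were EHe after 7 and 14 days of differentiation as a monolayer on gelatin. ES and EHe grew with leukemia inhibitory factor, which the differentiation medium and the Hepa1-6 medium did not list, so medium and cell state cannot be told apart. Per the study's methods the ES cells carried RFP with hygromycin resistance and the hepatoma cells GFP with neomycin resistance, and hybrids expressing both were picked as colonies after drug selection.

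Complement is a set of plasma proteins that cut one another in order, starting from antibody through C1, from sugars through the mannose-binding lectins, or directly on a surface, and that meet at C3 before the membrane attack complex forms. Clotting runs by a like chain of proteases to thrombin, which turns fibrinogen into fibrin, and plasmin later dissolves that fibrin. Hepatocytes make most of the circulating proteins of both cascades, whereas C1q comes mostly from macrophages, and von Willebrand factor, thrombomodulin and part of the tissue factor pathway inhibitor come from endothelium.

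Levels are given as scaled signal, the brightness of a probe after setting the 75th percentile of each array to 1000. A level can be compared between arrays for 1 probe, but not between probes. A gene with several probes is described by its brightest. Probes not called well above background by the scanner software had only a bound, set by the lowest scaled signal called well above background on that array, which lay between 14.0 in EHeD7 and 35.0 in EHe. A gene was counted as higher or lower when the brighter array was well above background and the ratio passed 3-fold. Repeated spots of 1 probe had a median SD between 0.0717 and 0.101 on the log2 scale, which is spot noise and holds no variation between cultures. Hepa1-6 was on slide 2 and the other arrays on slide 1, so slide and line cannot be told apart. Of the 49 genes, 37 were well above background on at least 1 array, 15 on all 5 arrays and 12 on none.

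As a check of the labels, Alb, the main plasma protein of hepatocytes, was at 67211 in Hepa1-6 and not well above background on the other 4 arrays. Ttr and Apoa1, which hepatocytes also secrete, were not well above background in Hepa1-6. Pou5f1, a defining factor of pluripotent cells, lay between 13463 and 21191 in ES and the hybrids, EHeD7 and EHeD14 included, and was not well above background in Hepa1-6.

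Hepa1-6 differed from ES in most of the measured genes, whereas EHe lay near ES. Of the 37 genes, in Hepa1-6 14 stood higher and 10 stood lower than ES, against 13.2% and 20.9% of all named genes. The median log2 difference was 0.04 over the 34 members with a value and -0.42 over all genes. When arrays were centred on their medians, which moved the median of all genes to 0.36, the counts became 15 higher and 6 lower, against 21.6% and 12.2% of all genes, and the members' median became 0.88. In EHe 0 members were higher and 2 lower than in ES, against 2.37% and 3.22% of all genes. The pair was Serping1 and F9. Centred on medians, 1 member was higher, F2, with a log2 difference of 1.59 in place of 1.48.

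Against Hepa1-6, 10 members were higher and 14 lower in EHe, against 17.8% and 12.9% of all genes. Median centring gave 6 and 15, against 11.7% and 20.1%. At day 14 the counts were 6 higher and 15 lower than Hepa1-6, against 17.6% and 12.3% of all genes, or 3 and 18 with median centring, where all genes gave 11.2% and 22.8%. The median log2 difference between EHeD14 and Hepa1-6 was -1.15 over 33 members and 0.23 over all genes, and with median centring these medians were -2.13 and -0.62.

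Compared with EHe, 3 members were higher and 6 lower at day 7, against 6.76% and 4.1% of all genes. Median centring gave 1 higher and 7 lower at that day, against 5.72% and 4.93% of all genes. At day 14, 4 were higher and 6 lower, against 6.78% and 4.42%. C2, F5 and Plat were higher at both days, where 5.69% of all genes were, and Mbl2, F2, Kng1, Tfpi and Vwf were lower at both days, where 3.41% were. C3 passed 3-fold upwards at day 14 only, Proc downwards at day 14 only and C8b downwards at day 7 only. Both days were read against the same EHe array, so the counts are not independent. Between day 7 and day 14, 0 members passed 3-fold in either direction, against 0.493% higher and 0.648% lower among all genes. Of the 29 members measured on both arrays, 27 differed by less than 1 on the log2 scale, and the widest differences were 1.41 for F7 and -1.27 for Vwf, both EHeD14 minus EHeD7.

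**Figure D1:**
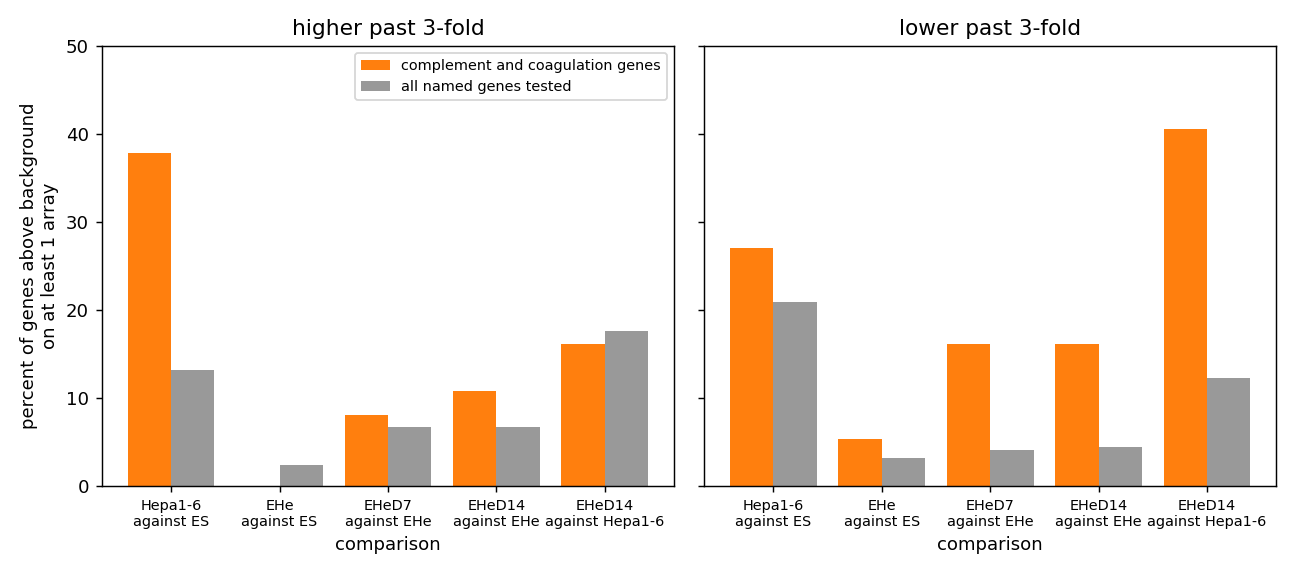
Percent of genes higher (left) and lower (right) past 3-fold in 5 comparisons of single arrays, for the 37 complement and coagulation genes above background on at least 1 array (orange) and for all named genes tested (grey). Members higher in Hepa1-6 than in ES made up 37.8% against 13.2% of all genes, and those lower in EHeD14 than in Hepa1-6 made up 40.5% against 12.3%.

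**Figure D2:**
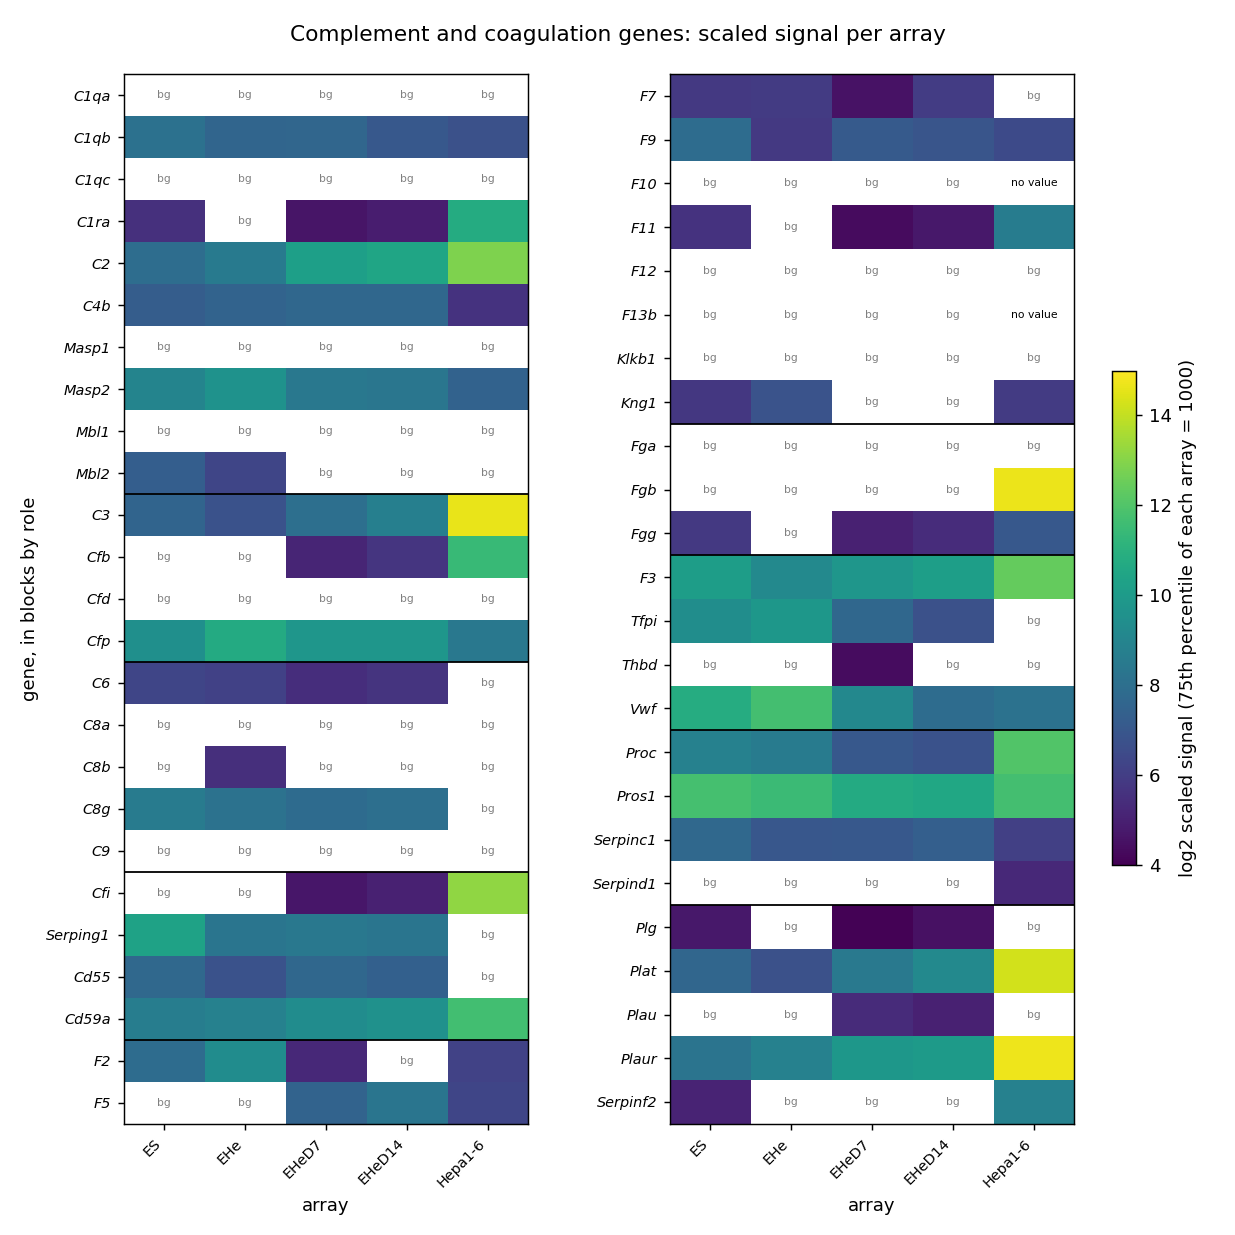
Log2 scaled signal of the 49 genes (rows, in blocks by role) on the 5 arrays (columns), with each array's 75th percentile at 1000. White cells with bg were not well above background, and the cells with no value are spots left out as outliers. C3, Fgb, Plat and Plaur are the brightest cells and lie in the Hepa1-6 column.

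The classical and lectin pathways had 10 members, of which 6 were measured. C2, the protease that joins C4 to form the C3 convertase, stood at 241 in ES and 7474 in Hepa1-6 and at 358, 1194 and 1432 in EHe, EHeD7 and EHeD14 respectively. Hepa1-6 exceeded ES by 31.1-fold, and the differentiated hybrids were 3.34-fold and 4.0-fold higher than EHe at day 7 and day 14. They thus lay between EHe and Hepa1-6, with 39.7% of the log2 gap closed at day 7 and 45.6% at day 14. At day 7 the log2 difference of C2 from EHe was 1.74, and it missed 3-fold with median centring (1.56) and with normexp background correction (1.55). C1ra, a protease of the C1 complex, stood at 45.9 in ES and 1729.6 in Hepa1-6 and at 24.5 and 29.7 in EHeD7 and EHeD14 respectively, and was not well above background in EHe (7.43). Hepa1-6 exceeded ES by 37.7-fold. The day 7 and day 14 signals of C1ra lay under the detection limit of the EHe array, so no ratio to EHe could be given. A close copy of this gene, C1rb, exists in the mouse, and which of them the probe binds was not tested.

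Mbl2, a mannose-binding lectin that starts the lectin pathway, ran the other way. It was measured at 156 in ES and 78.1 in EHe and was not well above background in EHeD7 (5.77), EHeD14 (4.90) or Hepa1-6 (6.36). Against EHe it was at least 5.57-fold lower at day 7 and at least 3.67-fold lower at day 14. With normexp correction these log2 differences were -1.14 and -1.26 and missed 3-fold.

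C4b, which is cut to start the convertase, stood at 151 in ES and 48.3 in Hepa1-6 and at 179, 203 and 202 in EHe, EHeD7 and EHeD14 respectively. The level in Hepa1-6 was the lowest, and the log2 difference of -1.64 from ES became -0.87 with median centring and -0.94 with quantile normalization, both short of 3-fold. C4a is a close copy, and binding of the probe to it was not tested. Masp2, the protease of the lectin pathway, was at 174 in Hepa1-6 and at 779.6, 338 and 322 in EHe and the later days, and did not pass 3-fold between EHe and either day.

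Of the 3 chains of C1q, the antibody-binding part of C1, only C1qb was measured. It lay between 106.7 in Hepa1-6 and 273 in ES and passed 3-fold in 0 of the comparisons. C1qa and C1qc, its neighbours in the genome, were not well above background on any array, and Masp1 and Mbl1 were not either. Of the 9 macrophage markers on the array, 5 were measured, and Ptprc and Adgre1, which define leukocytes and macrophages, were not well above background on any of the 5 arrays. The summed scaled signal of the measured macrophage markers was 518 in ES and 5545 in Hepa1-6, and 1099, 1753 and 1526 in EHe and at both days. Cd14, the 1 marker higher in Hepa1-6 than in ES, held 5276 of the Hepa1-6 sum, and the median log2 difference of the list between these lines was -0.34.

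Among the 4 genes of C3 and the alternative pathway, C3, the central component on which all 3 routes meet, showed the widest measured difference between Hepa1-6 and ES. It stood at 189 in ES and 25429 in Hepa1-6 and at 111, 256 and 425 in EHe, EHeD7 and EHeD14 respectively. Hepa1-6 was 134-fold higher than ES and 229.6-fold higher than EHe. EHeD14 was 3.84-fold higher than EHe and remained 59.8-fold lower than Hepa1-6. At day 7 the ratio to EHe was 2.31-fold, which did not pass. The repeated spots of the C3 probe had an SD of 0.332 on the log2 scale in EHe and between 0.0467 and 0.112 on the other arrays. A second C3 probe was not well above background in EHe or EHeD14. The day 14 difference of 1.94 became 1.40 with normexp correction and 0.61 with the mean of the probes, both short of 3-fold.

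Cfb, the alternative pathway protease that sits beside C2 in the genome, was at 2713 in Hepa1-6 and at 35.4 and 51.4 in EHeD7 and EHeD14 respectively, and was not well above background in ES and EHe (6.77 and 9.46). The Hepa1-6 level was at least 116-fold that of ES. Both days lay so near the EHe detection limit that the ratio to EHe was only at least 1.01-fold and at least 1.47-fold. Cfp, properdin, which steadies the alternative convertase, was highest in EHe at 1684, against 719 in ES, 872 and 872 after differentiation and 338 in Hepa1-6. Cfd, factor D, was not well above background on any array.

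The 250 bases before the RefSeq start of C3 are shown because C3 had the widest measured difference, with letters that match the motif searched in capitals. TTGCNNAA, a motif of the C/EBP factors, was searched on both strands. Among 32851 promoter windows of this length 9.56% held it. The 37 windows that RefSeq gave for 35 members held it in 8 cases (21.6%). These were C3, C9, F11, F9, Fga, Fgb, Klkb1 and Plaur. Of them C9, Fga and Klkb1 were not well above background on any array. F9 did not pass 3-fold between Hepa1-6 and ES. The match in C3 starts 45 bases before the start site. Sequences and positions are from RefSeq on build GRCm38.p6, and a match of letters does not show that a factor binds.
C3 (chr17:57228137-57228386, - strand): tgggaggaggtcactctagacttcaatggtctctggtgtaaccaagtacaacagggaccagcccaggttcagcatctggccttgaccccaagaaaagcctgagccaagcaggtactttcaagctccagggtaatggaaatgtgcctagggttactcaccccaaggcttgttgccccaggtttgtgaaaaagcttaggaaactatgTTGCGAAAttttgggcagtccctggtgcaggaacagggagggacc

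The 5 terminal members, which belong to the membrane attack complex, were not well above background in Hepa1-6. This does not hold for all terminal genes. Hc, which encodes C5 and was outside the set, was at 74.6 in ES and 398 in Hepa1-6. C8g, a chain of C8, was at 378 in ES and at 279, 232 and 259 in EHe, EHeD7 and EHeD14 respectively, and was not well above background in Hepa1-6 (25.3). Hepa1-6 was at least 14.8-fold lower than ES. C8b, another chain, was at 44.4 in EHe, and was not well above background in ES, EHeD7, EHeD14 and Hepa1-6 (22.6, 3.41, 4.96 and 5.54). At day 7 it was at least 3.16-fold lower than EHe, and at day 14 the bound of -1.06 on the log2 scale did not reach 3-fold. With normexp correction the day 7 bound of C8b was -0.44.

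C6 was measured between 44.0 in EHeD7 and 79.1 in ES and was not well above background in Hepa1-6. Its bound of -1.63 against ES missed 3-fold with median centring (-0.87), with quantile normalization and with normexp. C8a and C9 were not well above background on any of the arrays.

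The 4 complement regulators split into a pair that was higher in Hepa1-6 and a pair not found there. Cfi, factor I, which cuts C3b and C4b, was at 9209 in Hepa1-6 and at 25.6 and 32.1 in EHeD7 and EHeD14 respectively, and was not well above background in ES and EHe (16.1 and 7.28). Hepa1-6 was at least 393-fold higher than ES. EHeD14 was 287-fold lower than Hepa1-6. Cd59a, which blocks the attack complex on the cell surface, was at 408 in ES and 3248 in Hepa1-6 and at 455, 646 and 765 in EHe, EHeD7 and EHeD14 respectively. A second Cd59a probe gave 1.33 on the log2 scale for Hepa1-6 against ES where the brightest gave 2.99, and missed 3-fold.

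Serping1, the inhibitor of C1 and of kallikrein, stood at 1298 in ES and at 307, 335 and 307 in EHe, EHeD7 and EHeD14 respectively, and was not well above background in Hepa1-6 (7.79). EHe was 4.22-fold lower than ES, and Hepa1-6 was at least 50.9-fold lower than ES. The 3 hybrid arrays lay close together, between ES and Hepa1-6. Cd55, decay-accelerating factor, which takes convertases apart on the cell surface, was at 209 in ES and at 108, 205 and 165 in EHe, EHeD7 and EHeD14 respectively, and was not well above background in Hepa1-6 (6.72). Hepa1-6 was at least 8.19-fold lower than ES for this gene.

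**Figure D3:**
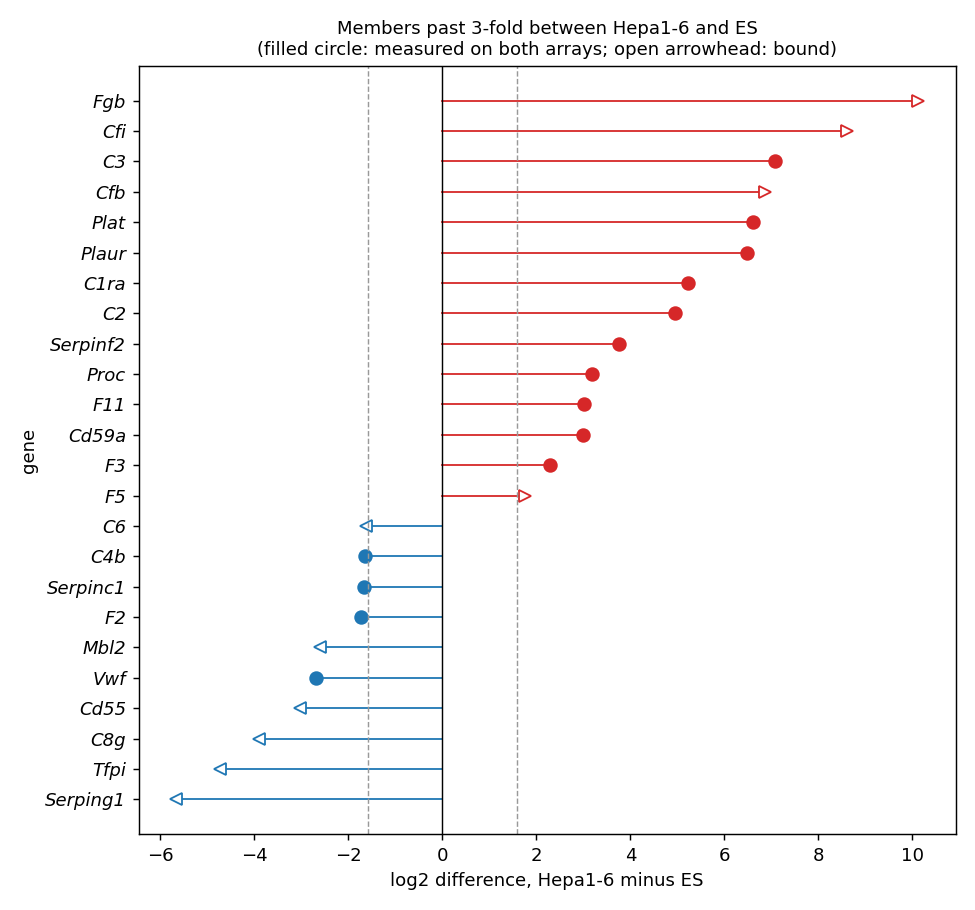
Log2 difference between Hepa1-6 and ES for the 24 members past 3-fold, 14 higher (red) and 10 lower (blue). Filled circles were measured on both arrays, open arrowheads are bounds against an array where the gene was not well above background, and dashed lines mark 3-fold. The widest were Fgb, at least 10.13 higher, and Serping1, at -5.67 or below.

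Among the coagulation factors, F5 was higher and F2 and Kng1 were lower at both days than in EHe. F5, the cofactor of factor Xa, was not well above background in ES (12.5) or EHe (8.22). It was measured at 183 in EHeD7, 305 in EHeD14 and 79.0 in Hepa1-6. The differentiated cells were at least 5.22-fold and at least 8.73-fold higher than EHe at day 7 and day 14. Day 14 was also above the hepatoma parent, by 3.87-fold, although this difference of 1.95 fell to 1.14 with median centring, 1.37 with quantile normalization and 1.26 with normexp, all short of 3-fold.

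F2, prothrombin, the precursor of the protease that makes fibrin, was highest in EHe. It stood at 238 in ES and 71.9 in Hepa1-6 and at 661 and 38.3 in EHe and EHeD7 respectively, and was not well above background in EHeD14 (21.2). Day 7 was 17.3-fold lower than EHe and day 14 at least 31.1-fold lower, so that both lay below the Hepa1-6 level too. The lower level of Hepa1-6 against ES, -1.72 on the log2 scale, did not pass 3-fold with median centring (-0.96).

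The upstream windows of F5 and F2 are shown as those of a factor higher and a factor lower than EHe at both days. Neither held a match to the C/EBP motif, which says only that these letters were not in this window.
F5 (chr1:164151585-164151834, + strand): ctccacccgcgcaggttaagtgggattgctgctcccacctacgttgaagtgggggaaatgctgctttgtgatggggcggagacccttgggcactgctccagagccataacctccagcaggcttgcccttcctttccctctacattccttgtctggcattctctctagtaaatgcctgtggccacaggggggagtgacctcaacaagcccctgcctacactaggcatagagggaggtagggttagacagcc
F2 (chr2:91636458-91636707, - strand): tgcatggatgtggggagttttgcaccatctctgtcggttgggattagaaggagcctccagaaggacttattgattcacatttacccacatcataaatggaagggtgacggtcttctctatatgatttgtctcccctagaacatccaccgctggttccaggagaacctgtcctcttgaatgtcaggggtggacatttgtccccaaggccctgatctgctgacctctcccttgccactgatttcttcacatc

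Kng1, high-molecular-weight kininogen, a cofactor of the contact phase, was at 55.1 in ES and 59.5 in Hepa1-6 and at 112 in EHe, and was not well above background in EHeD7 and EHeD14 (3.07 and 7.29). It was at least 7.97-fold lower than EHe at day 7 and at least 5.25-fold lower at day 14. A second Kng1 probe was not well above background on the arrays compared, and with the mean of the probes the log2 differences were -1.24 and -0.64, short of 3-fold. With normexp they were -1.43 and -1.38. Kng2 is a close copy, and binding of the probe to it was not tested.

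F9, a protease activated in the intrinsic route, stood at 236 in ES and 87.4 in Hepa1-6 and at 57.3, 139 and 121 in EHe, EHeD7 and EHeD14 respectively. EHe was the lowest array and was 4.12-fold lower than ES. The difference became -1.19 with normexp, and a second F9 probe was not well above background in ES or EHe. F11, which activates F9, was at 49.1 in ES and 398 in Hepa1-6 and at 19.9 and 26.0 in EHeD7 and EHeD14 respectively, and was not well above background in EHe (33.0). Hepa1-6 exceeded ES by 8.10-fold for F11. F7, the partner of tissue factor, lay between 23.2 in EHeD7 and 61.6 in EHeD14 on the hybrid and ES arrays and was not well above background in Hepa1-6. F12 and Klkb1, which start the contact phase, were not well above background on any array. F10 and F13b were not well above background on 4 arrays and had no usable value in Hepa1-6, where their only spot was marked an outlier.

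Of the 3 fibrinogen chains, which assemble into a single protein, only Fgb passed 3-fold between Hepa1-6 and ES. Fgb was at 26186 in Hepa1-6 and was not well above background in ES (17.7), EHe (13.6), EHeD7 (10.96) or EHeD14 (24.7). Hepa1-6 was at least 1118-fold higher than ES, the widest difference of the set, and 1061-fold or more above EHeD14. Fgg stood at 56.8 in ES and 132 in Hepa1-6 and at 32.2 and 41.8 in EHeD7 and EHeD14 respectively, and was not well above background in EHe (8.35). The ratio of Hepa1-6 to ES was 2.33-fold and did not pass 3-fold, but with median centring its log2 difference was 1.99 and passed. Fga, which lies between Fgg and Fgb in the genome, was not well above background on any array, Hepa1-6 included. Whether the Fga probe binds its transcript well was not tested.

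The upstream windows of Fgb and Fgg are set side by side as those of neighbouring genes of which Fgb passed 3-fold between Hepa1-6 and ES and Fgg did not. Fgb held the C/EBP motif, which starts 80 bases before the start site, and Fgg did not. The window of Fga, not well above background on any array, held the motif too.
Fgb (chr3:83049864-83050113, - strand): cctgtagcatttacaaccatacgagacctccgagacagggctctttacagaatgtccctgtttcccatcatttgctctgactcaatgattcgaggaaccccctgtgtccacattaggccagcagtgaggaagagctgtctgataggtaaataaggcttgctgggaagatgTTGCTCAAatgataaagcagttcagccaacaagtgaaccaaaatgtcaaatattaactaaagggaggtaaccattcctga
Fgg (chr3:83007474-83007723, + strand): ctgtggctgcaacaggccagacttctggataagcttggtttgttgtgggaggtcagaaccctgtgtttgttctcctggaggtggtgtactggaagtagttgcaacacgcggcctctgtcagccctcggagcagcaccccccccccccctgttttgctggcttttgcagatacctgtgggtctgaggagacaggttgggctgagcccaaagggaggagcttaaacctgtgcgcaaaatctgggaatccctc

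Of the genes that act at the cell surface and the vessel wall, Vwf and Tfpi were lower in the differentiated hybrids. Vwf, the multimeric protein that tethers platelets and carries factor VIII, stood at 1795 in ES and 280.2 in Hepa1-6 and at 3391, 567 and 234 in EHe, EHeD7 and EHeD14 respectively. EHe was the highest array, and day 7 and day 14 were 5.99-fold and 14.5-fold lower than it. EHeD14 and Hepa1-6 lay close together, with 71.8% of the log2 gap between EHe and Hepa1-6 closed at day 7 and 107.2% at day 14. Tfpi, which blocks the tissue factor complex, was at 681 in ES and at 895, 201 and 106 in EHe, EHeD7 and EHeD14 respectively, and was not well above background in Hepa1-6 (8.26). By this probe Hepa1-6 was at least 26.7-fold lower than ES. A further Tfpi probe was well above background in Hepa1-6 and gave a log2 difference of -4.21 from ES. The differentiated cells were 4.44-fold and 8.41-fold lower than EHe, and the further probes were called lower at both days too. The brightest probe was called higher in EHeD14 than in Hepa1-6. There the further probes gave 1.14 and a bound of 0.71 on the log2 scale, short of 3-fold.

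Among the 10 endothelial markers, 6 were measured, and Pecam1 and Icam2 were lower at both days than in EHe while 0 were higher at both. Cldn5, a junction protein, was higher at day 7 only, by 4.26-fold, from 212 in EHe to 904. Pecam1 was at 720.2 in ES, 399 in EHe and 44.0 in EHeD7. Cdh5 and Kdr, which define endothelium, were not well above background on any array, those with the highest Vwf included. The summed signal of the endothelial markers was 17171 in ES and 7538 in Hepa1-6, and 11505, 12297 and 15176 in EHe and at both days. Egfl7, which did not pass 3-fold at either day, held 15870.1 of the sum in ES, 10565 in EHe and 14503 in EHeD14. Of the 9 pluripotent markers measured, 4 were lower at both days as well, Sox2, Zfp42, Esrrb and Klf4, and the pluripotent sum was 400206, 249277 and 144335 in EHe and at day 7 and day 14. The part that residual undifferentiated cells have in the levels of Vwf, Tfpi and F2 was not tested, and in bulk RNA fewer cells that express a gene cannot be told apart from less RNA per cell.

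F3, tissue factor, the receptor that starts clotting, was at 1099.6 in ES and 5355 in Hepa1-6 and at 580.4, 870.5 and 1141 in EHe, EHeD7 and EHeD14 respectively. Hepa1-6 was 4.87-fold higher than ES. Neither day passed 3-fold against EHe. Thbd, thrombomodulin, the endothelial cofactor that turns thrombin to protein C, was well above background only in EHeD7, at 20.3. EHeD7 had the lowest detection limit, and the uncalled signals of Thbd in ES (30.9) and EHeD14 (23.1) were brighter. A level particular to day 7 was therefore not shown.

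Proc, protein C, the precursor of a protease that inactivates factors V and VIII, was highest in the hepatoma and lowest in the differentiated hybrids. It stood at 459.8 in ES and 4158 in Hepa1-6 and at 379, 131 and 109 in EHe, EHeD7 and EHeD14 respectively. Hepa1-6 was 9.04-fold higher than ES. Day 14 was 3.47-fold lower than EHe, and day 7 had a log2 difference of -1.53, just under 3-fold. The hybrids thus moved away from the Hepa1-6 level, and EHeD14 was 38.1-fold lower than the hepatoma. The day 14 difference of Proc was -1.41 with normexp, short of 3-fold, and the day 7 difference passed with median centring at -1.72.

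Pros1, protein S, the cofactor of protein C, was measured on all arrays, between 1522 in EHeD14 and 3469 in ES, and did not pass 3-fold between any pair compared. A second Pros1 probe passed between EHeD14 and Hepa1-6, with a log2 difference of -2.15. Serpinc1, antithrombin, which blocks thrombin and factor Xa, was at 212 in ES and 67.2 in Hepa1-6. The log2 difference of -1.66 became -0.89 with median centring, and a second Serpinc1 probe gave -0.09. Serpind1, heparin cofactor II, was well above background only in Hepa1-6, at 38.3.

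The plasminogen system dissolves fibrin, and its activator Plat and receptor Plaur were far higher in Hepa1-6 than in ES. Plat, tissue plasminogen activator, stood at 198 in ES and 19203 in Hepa1-6 and at 105, 351 and 578 in EHe, EHeD7 and EHeD14 respectively. Hepa1-6 was 97.1-fold higher than ES. Day 7 and day 14 were 3.33-fold and 5.49-fold higher than EHe, and 23.1% and 32.7% of the log2 gap to Hepa1-6 was closed. The day 7 difference of 1.74 missed 3-fold with median centring (1.55) and with normexp (1.32). A second Plat probe, not well above background in EHe, gave bounds of 0.01 at day 7 and 1.14 at day 14.

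Plaur, the urokinase receptor, was at 299.8 in ES and 26839 in Hepa1-6 and at 457, 914 and 1008 in EHe, EHeD7 and EHeD14 respectively. The hepatoma was 89.5-fold higher than ES. Against EHe the ratios were 2.00-fold at day 7 and 2.20-fold at day 14 and did not pass. Plau, urokinase, the other activator, was well above background at both days only, at 40.5 in EHeD7 and 32.0 in EHeD14. Its bound against EHe was at least 1.16-fold at day 7.

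Serpinf2, the plasmin inhibitor alpha-2-antiplasmin, was at 34.4 in ES and 463 in Hepa1-6, and was not well above background in EHe, EHeD7 and EHeD14 (20.0, 14.0 and 20.9). The ratio of Hepa1-6 to ES was 13.5-fold. Plg, plasminogen, was close to the detection limit, at 26.1 in ES, 16.9 in EHeD7 and 22.5 in EHeD14.

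The Plaur window is shown as that of a further gene bright in Hepa1-6 with a C/EBP match, which starts 59 bases before the start site. The windows of C9 and Klkb1, which held a match but were not well above background on any array, are not shown.
Plaur (chr7:24462233-24462482, + strand): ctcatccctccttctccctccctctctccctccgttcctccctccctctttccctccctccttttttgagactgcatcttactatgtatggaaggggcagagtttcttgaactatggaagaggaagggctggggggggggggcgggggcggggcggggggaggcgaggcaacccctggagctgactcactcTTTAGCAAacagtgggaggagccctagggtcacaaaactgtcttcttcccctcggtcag

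**Figure D4:**
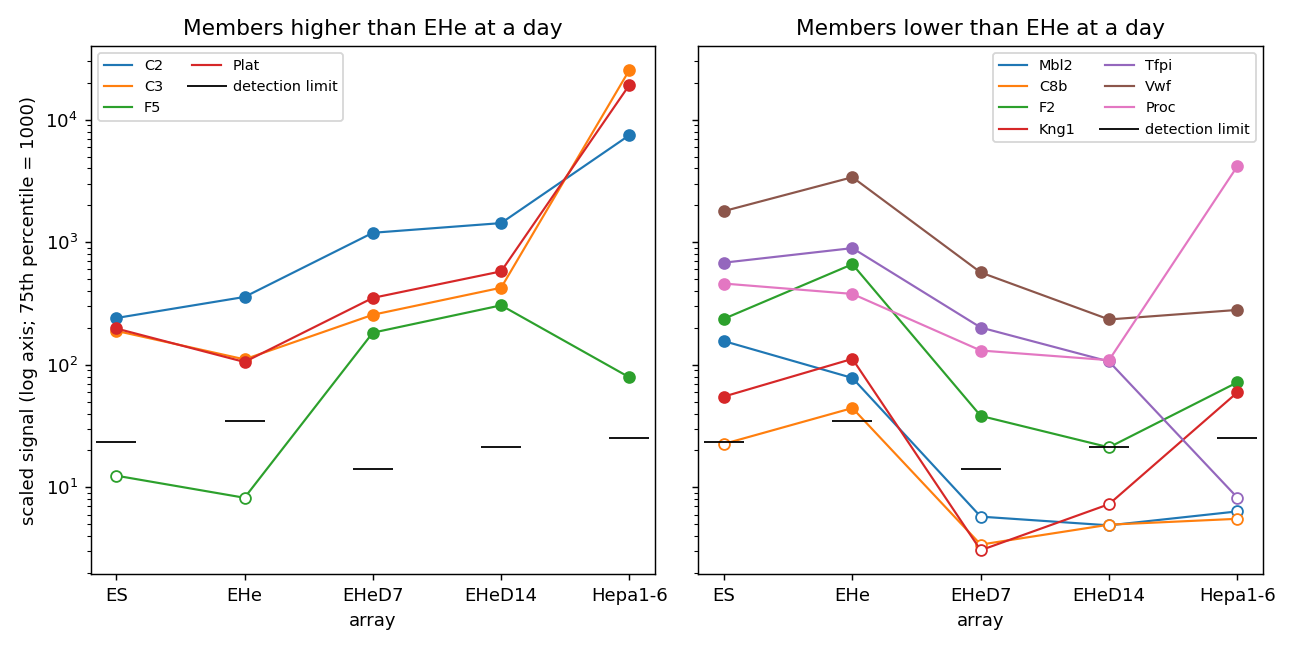
Scaled signal (log axis) on the 5 arrays of the 4 members higher (left) and the 7 members lower (right) than EHe past 3-fold at day 7 or day 14. Filled circles were well above background, open circles were not, and black dashes give each array's detection limit. C2, C3 and Plat lie between EHe and Hepa1-6 after differentiation, F5 lies above Hepa1-6, and Vwf, Tfpi and F2 are highest in EHe.

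The plot of levels by array also shows how many genes crossed the detection limit. Of the members, 8 were at background in EHe yet measured at both days, C1ra, Cfb, Cfi, F5, F11, Fgg, Plg and Plau. The detection limit of EHe, 35.0, was the highest of the arrays, and only F5 among the 8 passed 3-fold. With dim values taken as measured, 8 members were higher at day 7 and 9 at day 14, where 9.36% and 9.52% of all genes were. Both parents but not EHe were well above background for 4 members, C1ra, F11, Fgg and Serpinf2, and Hepa1-6 but neither ES nor EHe for 5, Cfb, Cfi, F5, Fgb and Serpind1. The ES signal of Serpinf2, 34.4, lay under the EHe detection limit, so a lower level in EHe than in ES was not shown. In the other direction Mbl2, C8b and Kng1 were well above background in EHe and at neither day. The shares of all genes with these patterns are not given, so the counts are not a result about the members. Of all probes 62.1% were well above background in ES and 56.8% in EHe. The shares of probes were 67.6%, 63.6% and 54.7% in EHeD7, EHeD14 and Hepa1-6 respectively.

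How far the differentiated hybrids went toward the hepatoma was expressed as the share of the log2 gap between EHe and Hepa1-6 that was closed, over the 24 members that differed past 3-fold between them. The median was 11.6% at day 7 and 16.4% at day 14, against 12.2% and 13.4% over all genes that differed. A gene whose change from EHe could not be measured was entered as 0%. Among the members these were C1ra, Cfi, F11, Fgb and Serpinf2 at both days and Fgg at day 7. Toward Hepa1-6 lay 14 of the 24 members at day 7 and 16 at day 14, against 63.7% and 65.0% of all genes that differed. Over members well above background on all arrays involved the median was 20.7% for 12 members at day 7 and 30.4% for 11 at day 14, against 17.5% and 18.4% over all genes. F3, Cd59a and C3 had closed 30.4%, 26.4% and 24.7% at day 14, whereas Proc stood at -51.9% and C4b at -9.20%, away from Hepa1-6. EHe enters both sides of this share, so its spot noise moves the value.

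Genes of the same pathways outside the set were counted from 2 further lists. Of 27 further complement genes on the array 17 were measured. At both days 1 was higher and 0 lower than EHe, against 5.69% and 3.41% of all genes. That gene was Clu, clusterin, which binds the attack complex, at 1773 in ES and 194945 in Hepa1-6 and at 1019, 12566 and 13310.2 in EHe, EHeD7 and EHeD14 respectively. Itgam was lower than EHe at day 7 only, and Cpn1 and C1s1 at day 14 only. Among all genes 4.1% and 4.42% were lower at these days. Cpn1 was at 702, 237 and 114 in EHe, EHeD7 and EHeD14 respectively, and C1s1 at 358, 154 and 115. The median log2 difference of the list from EHe was -0.34 at day 7 and -0.25 at day 14. In Hepa1-6 against ES 7 were higher and 1 lower, against 13.2% and 20.9% of all genes.

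Of 30 further coagulation and fibrinolysis genes 24 were measured. Against EHe 5 were higher and 0 lower at both days, where 5.69% and 3.41% of all genes were. Anxa2, which holds plasminogen and its activator on the cell surface, was at 36973 in Hepa1-6 and at 381, 4651 and 4037 in EHe and the later days. Procr, the receptor of protein C, was at 18530.3, 128, 692 and 800.1 on the same arrays, in the same order. Both were highest in the hepatoma, and so was Anxa5, an annexin that covers the lipid on which clotting factors assemble, with 1505 in EHe, 6315 in EHeD14 and 105495 in Hepa1-6. Serpine2, a thrombin inhibitor of the cell surface, was at 212 in EHe, 1315 in EHeD14 and 129 in Hepa1-6, so the differentiated level lay above the hepatoma. St14, the membrane protease matriptase, was at 3018 in EHe and 12119.5 in EHeD14 and was not well above background in Hepa1-6. In Hepa1-6 against ES 10 of the 24 were higher and 6 lower, against 13.2% and 20.9% of all genes.

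Markers of other cells were read beside these genes. Among all genes 5.69% were higher and 3.41% lower than EHe at both days. Of 15 hepatocyte markers on the array 12 were measured, and at both days only Foxa3 was higher than EHe and only Ahsg lower. Alb and Afp were not well above background in EHeD7 or EHeD14. The hepatocyte markers summed to 1105 in EHe, 1061 and 818 at the later days, and 218728 in Hepa1-6. Ahsg held 828 of the EHe sum, and 205 and 151 of the later sums. In EHe, with the highest detection limit, 2 of the markers were measured, against 8 at day 7 and 7 at day 14. The median log2 difference of the list from EHe, bounds included, was 0.55 at day 7 and 0.47 at day 14. Foxa2 was at least 5.30-fold higher than EHe at day 14 only. Of 13 extraembryonic endoderm markers, all measured, 5 were higher at both days and 0 lower at both, and the median log2 difference of the list from EHe was 1.02 at day 7 and 1.86 at day 14. Sox7 and Lama1 were 8.07-fold and 3.55-fold lower at day 7 only. The sums, of which Apoe and Sparc held 113827 and 35476 in EHe without passing 3-fold at either day, were 153152, 142420.0 and 137922 in EHe and at day 7 and day 14. Of 10 fibroblast markers, 9 measured, 4 were higher at both days and 0 lower, with sums of 1189.5, 5291 and 5711 in the same order. Of 6 platelet and megakaryocyte markers, 4 measured, Itga2b was higher at both days, while Gp1ba and Pf4 were not well above background on any array. The platelet sums were 139 at day 7 and 125 at day 14, and 0 of these markers were measured in EHe. The part of these cells in the levels of C2, C3, F5 and Plat was not tested.

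Further probes of the members gave the same call as the brightest probe in all but 15 of 119 pairs of probe and comparison, and 0 were called in the opposite direction. In many of these pairs neither probe was called. A further probe dim on both arrays, as in every pair of F9, Kng1, Plau and Plg, could not be called at all. The agreement was therefore partly set in advance.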

How the data were processed

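Total RNA of 5 cell states was hybridised to 1-colour Agilent arrays, 1 array per state. The labels name Cy3 and monolayer differentiation, whereas the study's methods name Cy5 and embryoid bodies, and the labels were followed. Per the labels and file headers, the authors scanned the arrays and deposited the background-subtracted signal of Agilent Feature Extraction 10.7.3.1 as an intensity for each spot, not normalized between arrays, with a call for well above background and for outlier spots. The deposited series table held the same intensities. Each array had 43379 non-control spots, of which 73 to 174 marked as outliers were left out, and 0 were saturated. Between 54.7% and 67.6% of probes were well above background. The genome build behind the array's design is not given in the sources used here.

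The log2 intensity was shifted by the 75th percentile of each array, the spots of a probe were averaged, and a gene was represented by its probe with the highest mean signal over the 5 arrays. Dim values were raised to the lowest signal called well above background on the array. A gene counted as past the threshold at 3-fold, among 15432 named genes above background on at least 1 array. With 1 array per state there is no test and no error between cultures, and the number of arrays limits the precision. The calling step was tested on simulated data, with changes set only in probes bright in ES. That simulation did not test the rule for dim values, on which the bounds rest. Members and gene lists were chosen with earlier results of these data known. All 49 members are accounted for by role. Values on the arrays are given for members past 3-fold between EHe and ES or a differentiated state and for the 15 with the largest difference between Hepa1-6 and ES. Of the list genes, C7, Serpina1a, Nanog and Cd68 were not named from the accessions and are not analysed here. Motifs were searched in the 250 bases before RefSeq starts. Of the members 14 had no RefSeq window, namely C1qa, C2, C4b, Masp1, Cfb, Cfi, Serping1, Kng1, Thbd, Vwf, Proc, Plg, Plat and Plau. Alternatives were quantile normalization, median centring, normexp background correction with an offset of 50, dim values as measured, the mean of a gene's probes, a 2-fold threshold, the deposited series table, 2 other filters and outlier spots kept. Python 3.11.15, pandas 2.3.3, numpy 2.4.6, matplotlib 3.10.9, R 4.3.3 and limma 3.58.1 were used.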

Additional observations from a re-analysis of the deposited data

Results flagged for a closer look

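Outlier spots were left out of every comparison, and for 2 members they held the only Hepa1-6 signal. The F10 spot had a scaled signal of 199.9 and was well above background in Hepa1-6, against 4.94 in ES, 7.26 in EHe, 4.31 in EHeD7 and 14.0 in EHeD14, none of them well above background. F13b had a spot of 361.7 in Hepa1-6, against 6.03, 8.18, 3.35 and 5.06 on the same arrays in that order. With these spots kept, Hepa1-6 was at least 8.54-fold higher than ES for F10, which makes factor X, and at least 15.4-fold higher for F13b, the carrier subunit of factor XIII. Each rests on 1 spot that the scanner software marked as an outlier.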

How the results depend on the processing

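Of 228 values under alternatives, 159 stayed within the tolerance (1.5 times for a count, the spot SD for a median log2 difference, 5 percentage points for a gap share), and 69 moved past it. No called direction of a member turned. The medians of EHeD7 against EHe, EHeD14 against EHe and EHeD14 against EHeD7 changed sign under some settings given below, and that of Hepa1-6 against ES was -0.04 among genes above background on all 5 arrays. The deposited series table and the absence of a filter moved 0 values. No paired analysis was possible because a single array stood for each state, and no replicate could be left out. Outlier spots kept, and gap shares over measured members, were chosen after seeing the data. The cause of the shifts below was not tested. For Hepa1-6 against ES, lower members numbered 6 under quantile normalization, 6 under median centring, 5 under normexp and 3 among genes above background on all 5 arrays, where 7 were higher. The median of that comparison was 0.94 (quantile), 0.88 (median centring), 0.43 (mean of probes) and 0.41 (outlier spots kept). For EHe against ES, higher members numbered 1 under median centring and 3 at 2-fold, lower members 1 under normexp, 4 with dim values as measured and 1 above background on all arrays, and the median was -0.15 with median centring and -0.36 with dim values as measured. For EHe against Hepa1-6, 6 were higher under median centring, and 4 were higher and 7 lower above background on all arrays. Its median was -0.87 (quantile), -0.82 (median centring), -0.41 (dim values as measured), -0.38 (mean of probes), -0.61 (all arrays) and -0.41 (outlier spots kept). For EHeD7 against EHe, higher members numbered 1 under median centring, 1 under normexp, 8 with dim values as measured and 6 at 2-fold. Lower members numbered 3 under normexp and 1 on all arrays, and the median was -0.28 (quantile), -0.15 (median centring), 0.19 (normexp), 0.15 (dim values as measured), -0.25 (mean of probes) and 0.18 (all arrays). For EHeD14 against EHe, 9 were higher with dim values as measured, and 3 were lower under normexp and 2 on all arrays. The median was -0.11 (quantile), -0.15 (median centring), 0.17 (normexp), 0.17 (dim values as measured) and 0.37 (all arrays). For EHeD14 against EHeD7, 1 was higher and 1 lower at 2-fold, and the median of 0.18 became -0.028 under normexp and 0.00076 on all arrays. For EHeD14 against Hepa1-6, 3 were higher under quantile normalization, 3 under median centring, 1 under normexp, and 1 higher and 7 lower on all arrays. Its median was -2.01 (quantile), -2.13 (median centring), -0.60 (normexp), -1.41 (dim values as measured) and -1.48 (outlier spots kept). The gap share was 21.7% at day 14 under quantile normalization, 21.9% and 26.4% at day 7 and 14 with dim values as measured, 0.269% and 10.6% with the mean of probes, 17.0% at day 7 at 2-fold, 4.04% and 11.1% with outlier spots kept, and 20.7% and 30.4% over measured members.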
